A study of Rattus norvegicus with 12 samples.

Results

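The proteasome genes of the rat were followed in the sciatic nerve, spinal cord and cerebellum of young male Wistar rats given acrylamide or saline. Members were all genes whose single symbol in the platform annotation begins with Psma, Psmb, Psmc, Psmd, Psme, Psmf or Psmg followed by a digit, apart from Psmb8 and Psmb9, and each gene was represented by its brightest probe set. This gave 44 genes, from 58 matching probe sets, of 14217 genes with a single symbol on the array, and 9 of the 44 had more than 1 probe set. By function, 7 are alpha-ring and 6 beta-ring subunits of the 20S core, 1 is an immunoproteasome beta subunit, 6 are ATPases and 11 are other subunits of the 19S cap, 3 are chaperones of cap assembly, 4 are chaperones of core assembly, 3 are activators and 1 is an inhibitor. The other 2, Psmc3ip (a factor of meiotic recombination) and Psme3ip1 (a binding partner of a proteasome activator), match the name pattern but are not subunits, so 42 of the 44 fit the name proteasome gene. Psmb6, a catalytic beta subunit, and the activator Psme3 are not members, because their probe sets carry several symbols.

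The acrylamide groups received 30 mg/kg per day by gavage for 21 days and the controls are called saline in one label and solvent in another, and each of the 6 groups, acrylamide and saline in the nerve, the cord and the cerebellum, had 2 arrays. Each array carried RNA of 2 pooled rats, so the spread between arrays is a spread between pools. The start age is given as 25 days in one label and 3 weeks in another, and the labels do not settle whether collection came at the end of the 21 days or 21 days later. Acrylamide is an electrophile that reacts with thiol groups and is known to damage long axons.

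The proteasome degrades proteins that carry ubiquitin chains. Its 20S core is a barrel of stacked rings whose beta subunits hold the proteolytic sites, and the 19S cap recognises ubiquitin, removes it and unfolds the substrate with a ring of ATPases. Other regulators, such as the PA28 activator encoded by Psme1 and Psme2, can replace the cap, and interferon-induced beta subunits can replace the catalytic ones to form the immunoproteasome. In neurons the proteasome works in cell bodies, axons and synapses, and its subunit genes are expressed in nearly all cells.

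Signals were in arbitrary units, with array medians between 161 and 199, and all 44 genes lay above the median of all probe sets on every array and passed the filter on low values in all 3 tissues. Cerebellar neuron markers were highest in the cerebellum and Schwann cell markers in the nerve, but the cord also carried Schwann cell markers. Summed signals of 8 cerebellar neuron markers were 75000 to 81720 in the cerebellum and 1499 to 2236 in the cord. Those of 5 Schwann cell markers were 83600 to 104600 in the nerve, 30620 to 42070 in the cord and 1472 to 1772 in the cerebellum. In the cord the Schwann sums were 33220 and 30620 with acrylamide and 39330 and 42070 with saline. There all 5 markers lay below both saline arrays with acrylamide, as did 15.8% of all probe sets. The part of these cells in the cord values was not tested. Several arrays stood apart. Both nerve arrays numbered 1 carried cerebellar neuron markers, with sums of 12180 (acrylamide) and 9293 (saline) against 881 and 952 on the nerve arrays numbered 2. Other marker sums were also higher there, in the same order: 3115 and 2751 against 392 and 437 for choroid plexus. They were 8353 and 5510 against 3111 and 2282 for astrocytes, and 9004 and 8184 against 1211 and 1366 for motor and other neurons. The 7 skeletal muscle markers summed to 39030 on cord saline array 1, against 439 to 891 on the other cord arrays, and in the nerve to 1746 and 20090 with acrylamide and 5120 and 672 with saline. The 5 fat cell markers summed to 9222 and 12530 with acrylamide and 30140 and 7787 with saline in the nerve, so nerve saline array 1 also stood apart. Whether one set of rats gave all 3 tissues is not in the labels. In bulk tissue, fewer cells of a type and less RNA per cell cannot be told apart.

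The signal of the proteasome genes varied little within a tissue. The plot of all members by array shows differences mainly between tissues and, within each tissue, similar colours for acrylamide and saline.

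**Figure D1:**
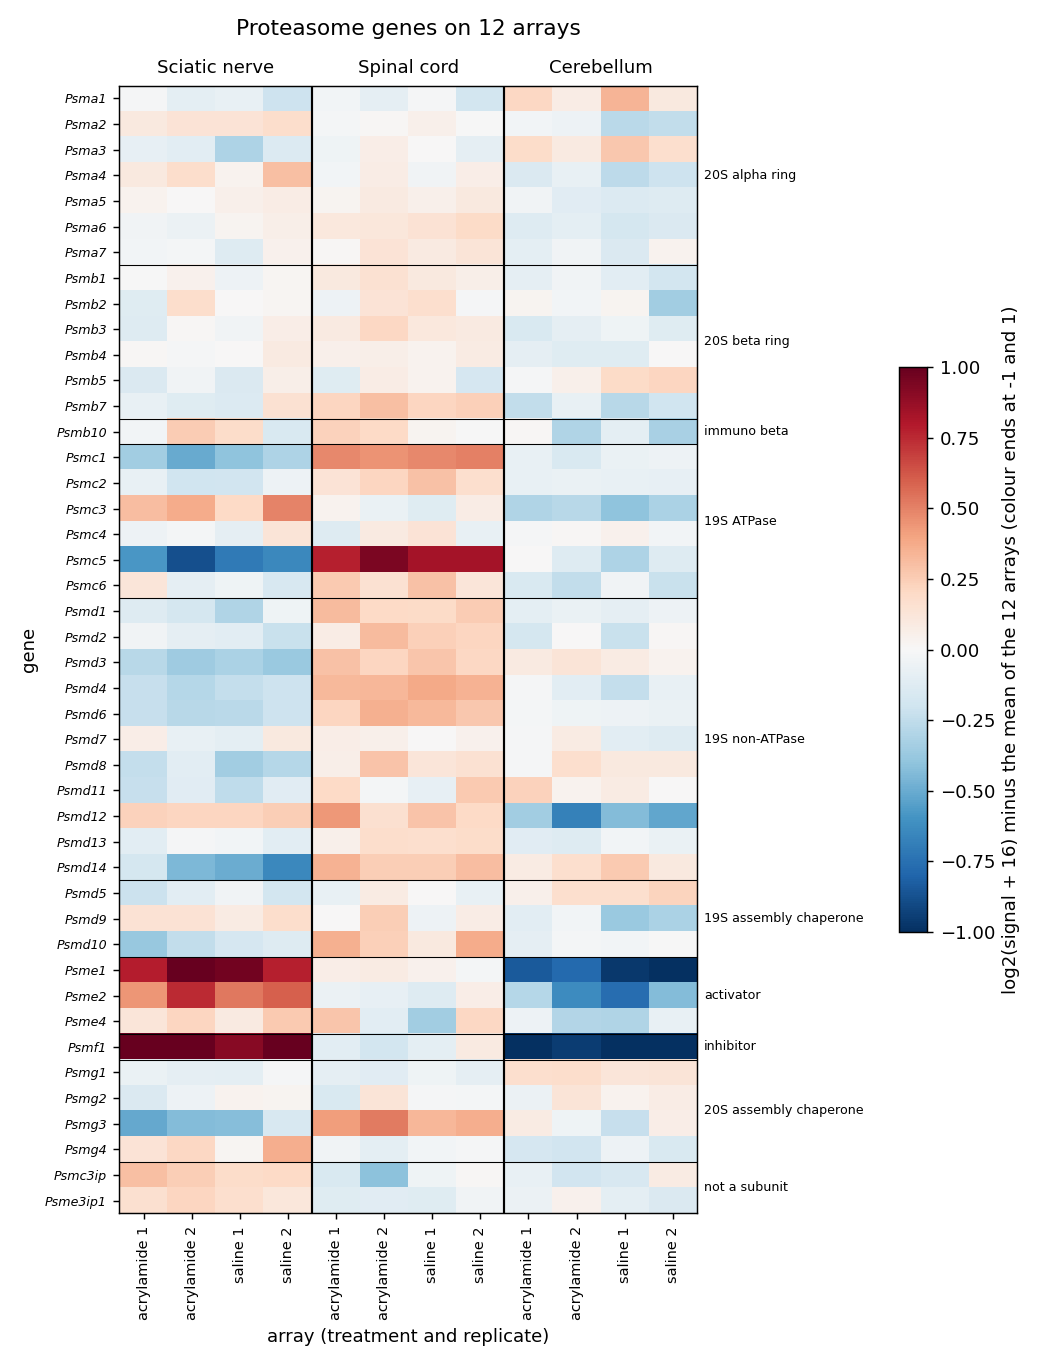
Each row is 1 of the 44 genes, ordered by role, and each column 1 of the 12 arrays. Colour is log2(signal + 16) minus the gene's mean over the 12 arrays, and it ends at -1 and 1. Psme1, Psme2 and Psmf1 are high in the nerve and low in the cerebellum, and Psmc5, Psmc1 and most other 19S genes are highest in the cord.

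The first comparison asked whether acrylamide changed these genes. No proteasome gene passed the test in any tissue. With limma, on log2(signal + 16), at an adjusted p under 0.05, 0 of 44 genes differed between acrylamide and saline in the cerebellum, where 0% of the 18820 probe sets tested did, 0 of 44 in the cord (0% of 18967) and 0 of 44 in the nerve (0.00553% of 18088, which is 1 probe set). Averaged over the 3 tissues, again 0 of 44 passed, against 0.00937% of 21347, or 2 probe sets. At an unadjusted p under 0.05 there were 3 genes in the cerebellum, all higher with acrylamide (6.82% of the members, against 2.71% of all probe sets in either direction and 1.28% in that direction), 0 in the cord (2.87% of all), 1 in the nerve (5.1% of all) and 0 in the average (5.56% of all). The median log2 difference of the 44 genes was 0.025 in the cerebellum, 0.004 in the cord, -0.007 in the nerve and 0.014 in the average, beside 0, 0.004, 0.001 and 0.002 for all probe sets.

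Among the 44 genes the smallest adjusted p for acrylamide was 1 in the cerebellum, 1 in the cord, 0.97 in the nerve and 0.918 in the average. The intervals state how large a change could have been missed. The 95% intervals, unadjusted for the number of genes, had a median half-width of 0.23 on the log2 scale in a tissue and 0.13 in the average. They lay within 0.5 of zero for 43 genes in the cerebellum, 41 in the cord, 43 in the nerve and 44 in the average, and within 1 of zero for all 44 in each. The highest upper bound in a single tissue was 0.59 (Psme4 in the cord, a 1.51-fold increase) and the lowest lower bound -0.57 (Psmc3ip in the cord, a 1.48-fold decrease). The standard error of a difference in a tissue had a median of 0.10 for the members and 0.16 for all probe sets. Both acrylamide arrays lay above both saline arrays for 14 members in the cerebellum, 4 in the cord and 5 in the nerve (17.1%, 17.7% and 13.3% of all probe sets), and below them for 5, 7 and 6 members (16.6%, 15.8% and 13% of all).

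**Figure D2:**
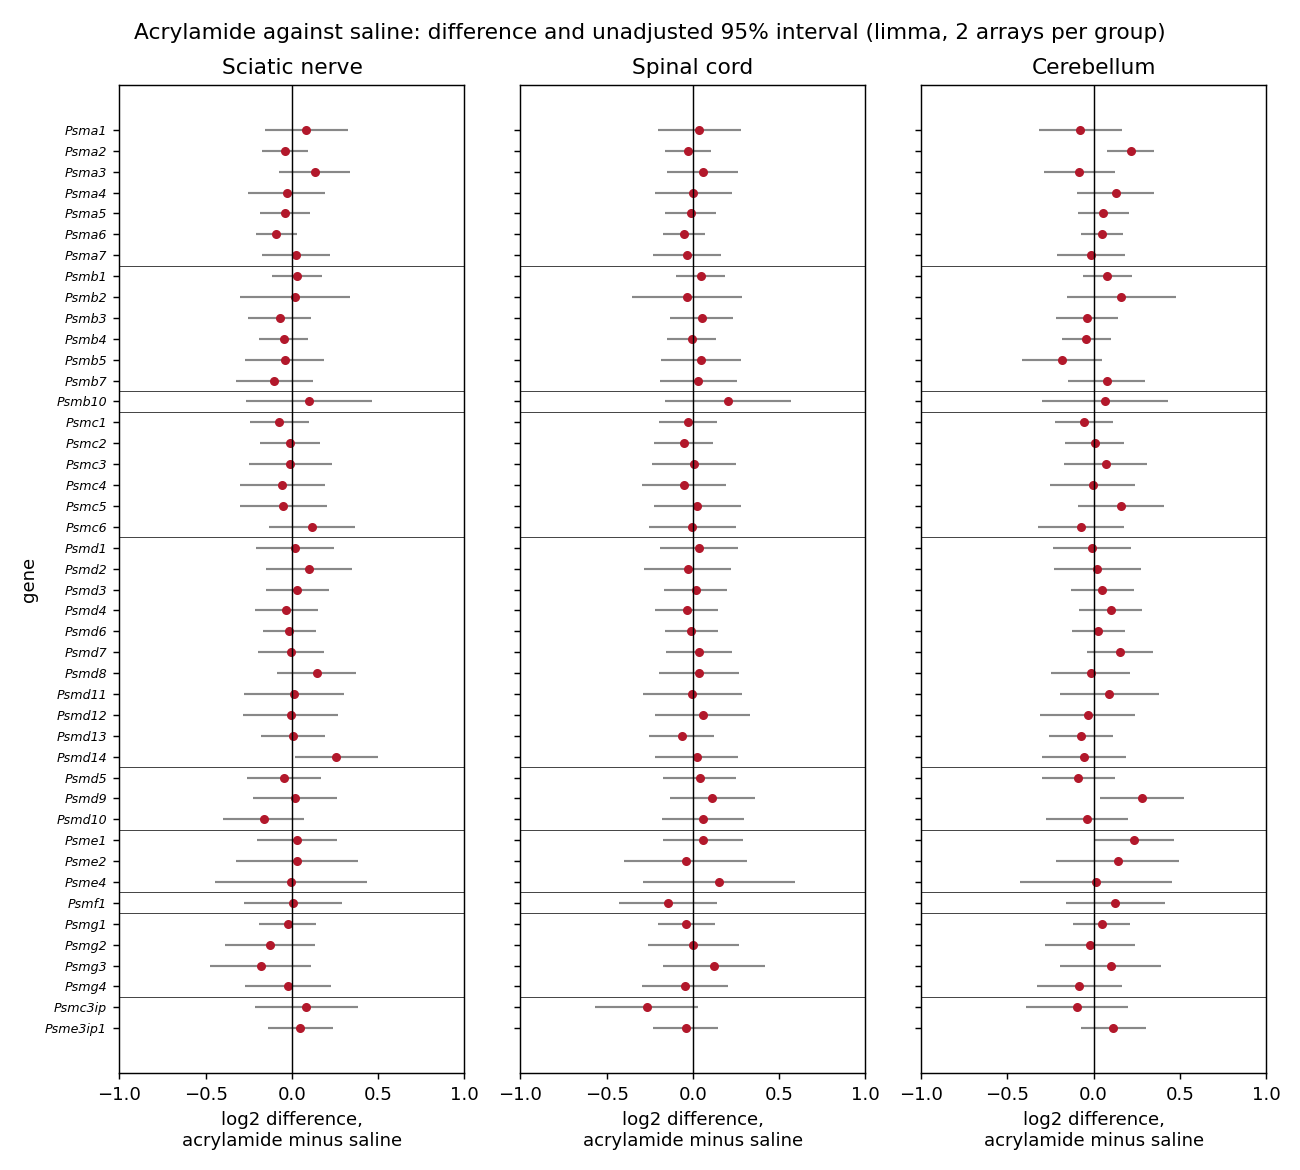
Points are log2 differences, acrylamide minus saline, of the 44 genes in the nerve, the cord and the cerebellum, and bars are unadjusted 95% intervals from limma with 2 arrays per group. In the cerebellum the intervals of 3 genes lie off zero (Psma2, Psmd9 and Psme1), in the cord none and in the nerve 1 (Psmd14).

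Among the 20S core genes, Psma2, an alpha-ring subunit, had the smallest p in the cerebellum. Its signals there were 3377 and 3324 with acrylamide, against 2865 and 2907 with saline, so that the groups did not overlap (3350 ± 37.2 and 2886 ± 29.9, SD, n = 2 arrays each). The log2 difference was 0.21 ± 0.06 (SE; 95% interval 0.08 to 0.35; adjusted p = 1 in limma). In the cord Psma2 read 3397 and 3484 with acrylamide and 3573 and 3444 with saline, and in the nerve 3689 and 3795 with acrylamide and 3798 and 3907 with saline. The log2 differences there were -0.03 ± 0.06 and -0.04 ± 0.06. Psma6, another alpha subunit, had 5341 and 5263 with acrylamide and 5595 and 5693 with saline in the nerve (-0.09 ± 0.05), and -0.05 ± 0.05 in the cord. Psma3, also of the alpha ring, differed by 0.13 ± 0.09 in the nerve.

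The catalytic beta subunits gave no call. Psmb5, which carries the chymotrypsin-like site, had 4051 and 4249 with acrylamide and 4680 and 4758 with saline in the cerebellum, a log2 difference of -0.19 ± 0.10, and its differences in the cord and nerve were 0.05 ± 0.10 and -0.04 ± 0.10. Psmb7, with the trypsin-like site, differed by 0.08, 0.03 and -0.10 (each ± 0.10) in the cerebellum, cord and nerve. The probe set shared by Psmb6, with the caspase-like site, and Psmb6l1 differed by -0.06, -0.02 and -0.06 (each ± 0.07). Psmb1, a structural beta subunit, was among the smallest p-values of the average, at 0.05 ± 0.04. Over the 13 core genes the median difference was 0.05 in the cerebellum, 0.00 in the cord and -0.04 in the nerve.

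Among the 17 cap subunits, Psmd14, the deubiquitinase that removes ubiquitin chains from substrates, had the smallest p in the nerve. Its nerve signals were 2036 and 1687 with acrylamide, against 1632 and 1467 with saline, which do not overlap. The log2 difference was 0.26 ± 0.11 (adjusted p = 0.97). Without nerve acrylamide array 1 it was 0.12, and the other Psmd14 probe sets gave 0.04 and -0.15 in the nerve. Psmd8, another cap subunit, differed there by 0.14 ± 0.10. In the cerebellum Psmd7, a cap subunit that pairs with Psmd14, differed by 0.15 ± 0.09 and the ATPase Psmc5 by 0.16 ± 0.11. The median over the cap subunits was 0.01 in the cerebellum, 0.00 in the cord and -0.01 in the nerve.

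The assembly chaperones and regulators held the other genes with small p-values. Psmd9, a chaperone of the cap's ATPase ring, had 544 and 574 with acrylamide against 449 and 467 with saline in the cerebellum, where the groups did not overlap, and a log2 difference of 0.28 ± 0.11 (adjusted p = 1). It also had the smallest p in the average (0.14 ± 0.06, adjusted p = 0.918). Its second probe set, with 135 and 185 with acrylamide and 207 and 204 with saline, differed the other way in the cerebellum, by -0.35, so the 2 probe sets of Psmd9 give no single direction. Psmd10 (gankyrin), a second chaperone of the cap, differed by -0.17 ± 0.11 in the nerve. Psmg3, a chaperone of the core's alpha ring, differed by -0.18 ± 0.13 in the nerve and 0.12 ± 0.13 in the cord.

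Psme1, which encodes the alpha subunit of PA28, had 847 and 886 with acrylamide against 778 and 694 with saline in the cerebellum, again without overlap. The log2 difference was 0.23 ± 0.10 (adjusted p = 1), and 0.14 ± 0.16 for its partner Psme2, where the groups overlapped. The average over tissues was 0.11 ± 0.06 for Psme1 and 0.04 ± 0.09 for Psme2. Summed signals of the 7 microglia and macrophage markers were 2309 and 2531 with acrylamide and 1727 and 1887 with saline in the cerebellum, with 5 of 7 markers above both saline arrays, 1 below both and no value at 0. In the cord the sums were 6784 and 6538 with acrylamide and 4565 and 4667 with saline, with 6 of 7 markers above, and Psme1 differed by 0.06 ± 0.10 there. The part of these cells in the Psme1 values was not tested.

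Psmb10, the immunoproteasome subunit that takes the place of Psmb7, had 638 and 625 with acrylamide and 551 and 540 with saline in the cord. The groups did not overlap, and the log2 difference was 0.21 ± 0.16. It was 0.06 and 0.10 (each ± 0.16) in the cerebellum and nerve, and 0.12 ± 0.09 in the average. Psmf1 (PI31), known as an inhibitor of the isolated core and as an adaptor for the transport of proteasomes in axons of flies and mice, had 1571 and 1489 with acrylamide and 1582 and 1803 with saline in the cord. Its log2 difference was -0.14 ± 0.13. Psmc3ip, which is not a subunit, had the smallest p in the cord, at -0.27 ± 0.13. The smallest p-values of the average belonged to Psmd9, Psme1, Psmb1, Psma2 (0.05 ± 0.03), Psmb10 and Psmd7 (0.06 ± 0.05).

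The effect of acrylamide was then compared between tissues with limma's F test. It gave 0 of 44 members at an adjusted p under 0.05, against 0% of 21347 probe sets. At an unadjusted p under 0.05 it gave 1 member, Psma2, against 2.75% of all, and its adjusted p was 1. The next in order of p were Psmd14, Psmc3ip and Psma6. An effect of acrylamide on a proteasome gene particular to one tissue was therefore not shown by the test of the difference.

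The second set of comparisons, in saline rats, asked how the tissues differ in these genes without treatment. Signals of different probe sets are not comparable, so each gene was compared with itself between tissues. Where proteasome genes differed between cord and cerebellum, most were higher in the cord. In limma 21 of 44 members were higher and 3 lower in the cord than in the cerebellum at an adjusted p under 0.05, so 24 were called, against 53.1% of all probe sets (26% higher, 27.1% lower). The median log2 difference was 0.22 for the members and -0.06 for all probe sets. Between nerve and cord 18 were called, 4 higher and 14 lower in the nerve, against 57.9% of all (29.1% higher, 28.8% lower), with a median of -0.07 for the members and 0.04 for all. Between nerve and cerebellum 21 were called, 12 higher and 9 lower in the nerve, against 69.7% of all (30.6% higher, 39% lower), with medians of 0.02 and -0.14. The share of members called, 54.5% in cord against cerebellum, was thus close to that of all probe sets there, and at 40.9% in nerve against cord and 47.7% in nerve against cerebellum it was below it. All 4 cord arrays, of both treatments, lay above all 4 cerebellar arrays for 25 members and below them for 3 (32.1% and 35.8% of all probe sets). All 4 nerve arrays lay above all 4 cord arrays for 8 members and below for 18 (33.7% and 31.7%), and above all 4 cerebellar arrays for 14 and below for 12 (32.4% and 41.3%).

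These directions depend in part on the scale between arrays. Centring each array on its median shifted the median of all probe sets by 0.19 in nerve minus cord and 0.22 in nerve minus cerebellum. The calls were then 8 higher and 7 lower in nerve against cord, beside 37.3% and 22.5% of all probe sets. In nerve against cerebellum they were 20 higher and 1 lower (36.4% and 30.4% of all). In cord against cerebellum they were 17 higher and 1 lower (25.5% and 25.6% of all). Quantile normalization gave 5 higher and 19 lower in nerve against cord, beside 32.3% and 26.6% of all probe sets. It gave 11 higher and 13 lower in nerve against cerebellum (33.1% and 35% of all). In cord against cerebellum it gave 21 higher and 3 lower (27.6% and 27.2% of all). It shifted the median of all probe sets by 0.10 in nerve minus cerebellum. The call count of cord against cerebellum also fell to 14 without cerebellum saline array 1, 15 without cerebellum saline array 2 and 13 without cord saline array 2, and to 16 without the 2 arrays richest in muscle RNA. Without both nerve arrays numbered 1, 20 members were called in nerve against cord and 21 in nerve against cerebellum, and without the muscle-rich arrays 14 and 19. The acrylamide arrays, compared in the same way, called 18 in cord against cerebellum, 19 in nerve against cord and 17 in nerve against cerebellum. Of these, 15, 15 and 14 were called in saline rats with the same sign. For the counts with arrays left out or on the acrylamide arrays, the share of all probe sets is not given here. A change in these counts cannot be read as particular to the members.

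**Figure D3:**
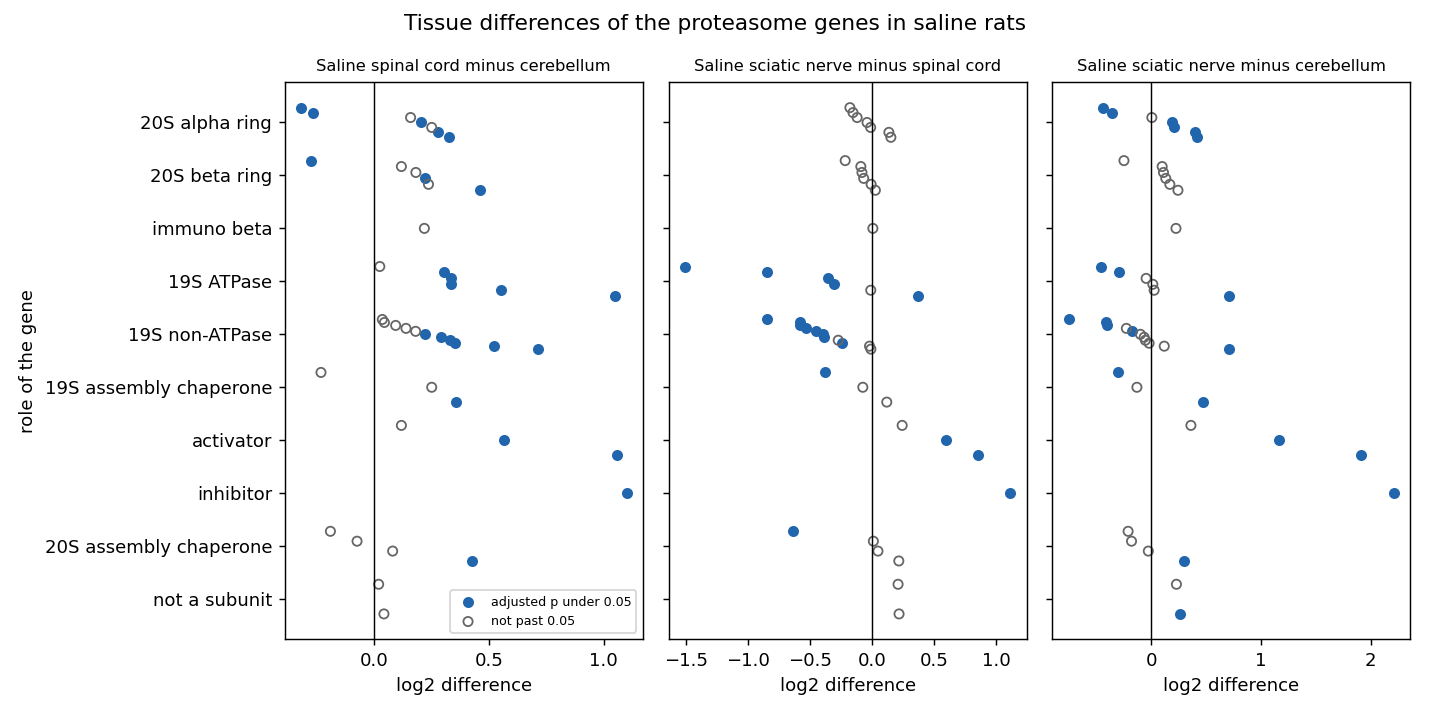
Each point is 1 of the 44 genes, placed by its log2 difference between 2 tissues of saline rats and grouped by role. Filled points passed an adjusted p of 0.05 in limma and open points did not. All 17 subunits of the 19S cap lie to the right in cord minus cerebellum (15 of 17 after quantile normalization). In nerve minus cord 16 of 17 lie to the left (13 of 17 after median centring). The activators Psme1 and Psme2 and the inhibitor Psmf1 lie to the right in all 3 panels.

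Many genes of the 19S cap were highest in the cord. All 17 cap subunits had a positive difference in cord minus cerebellum, of which 11 passed the test, with a median of 0.31, against 26% of all probe sets called higher. After quantile normalization, with the mean over all probe sets of a gene or on the acrylamide arrays, 15 of 17 were positive. With median centring or a replicate block within tissues 8 were called. With any 1 saline array of these tissues left out the median was 0.25 to 0.30, but fewer of the 17 were called than in the main fit. In nerve minus cord 16 of 17 had a negative difference, with 12 called lower, 1 called higher and a median of -0.39, against 28.8% of all probe sets called lower and 29.1% higher. After median centring 13 of 17 were lower in the nerve than in the cord, with 6 called lower, 1 called higher and a median of -0.21, and after quantile normalization 16 of 17 (13 called lower). Without both nerve arrays numbered 1, 13 of 17 were lower in the nerve, with a median of -0.365. Of the 13 genes of the 20S core 0 were called between nerve and cord in limma, against 57.9% of all probe sets. They had 10 negative differences and a median of -0.07. Median centring gave 12 positive differences with 1 called, and quantile normalization 11 negative ones with 4 called. The probe set shared by Psmb6 and Psmb6l1, outside the rule, was called lower in nerve than cord (-0.42 ± 0.07). So was the one shared by Psma3 and Psma3l (-0.32 ± 0.08). In cord minus cerebellum 5 core genes were called higher, among them Psmb7 (0.46 ± 0.10) and Psma6 (0.33 ± 0.05), and 3 lower, against 26% and 27.1% of all. The median of the cap genes minus the median of the core genes, each gene set to its mean over the 12 arrays, was -0.22 to -0.11 on the 4 nerve arrays, 0.13 to 0.20 on the 4 cord arrays and -0.01 to 0.07 on the 4 cerebellar arrays, so the tissues did not overlap in this balance. Within the nerve it was -0.11 and -0.11 with acrylamide and -0.21 and -0.22 with saline. In the cord it was 0.203 and 0.129 with acrylamide and 0.198 and 0.135 with saline. In the cerebellum it was 0.066 and -0.01 with acrylamide and 0.057 and 0.062 with saline. The median acrylamide difference in the nerve was -0.007 for the cap genes and -0.041 for the core genes. This balance was not among the planned comparisons, and an effect of acrylamide on it was not tested.

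Psmc5, an ATPase of the cap (gene at chr10:91687553-91693487 of GRCr8), had the largest difference among the cap subunits. Its signals were 2140 and 1741 with acrylamide and 1958 and 2045 with saline in the nerve. In the cord they were 5510 and 6182 with acrylamide and 5733 and 5726 with saline, and in the cerebellum 3225 and 2944 with acrylamide and 2585 and 2945 with saline. The cord arrays lay above all others and the nerve arrays below all others. In saline rats the log2 difference was -1.51 ± 0.11 in nerve minus cord (2.85-fold lower, adjusted p = 9.25e-06), 1.05 ± 0.11 in cord minus cerebellum (adjusted p = 8.06e-05) and -0.46 ± 0.11 in nerve minus cerebellum (adjusted p = 0.00479, not called after median centring, at -0.26).

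Psmc1, another ATPase, followed the same order. It had 2067 and 1855 with acrylamide and 1995 and 2129 with saline in the nerve, 3698 and 3602 with acrylamide and 3699 and 3748 with saline in the cord, and 2507 and 2370 with acrylamide and 2521 and 2547 with saline in the cerebellum. The saline differences were -0.85 ± 0.08 in nerve minus cord, 0.55 ± 0.08 in cord minus cerebellum and -0.30 ± 0.08 in nerve minus cerebellum, all called, although the last was -0.10 and not called after median centring. 2 further ATPases, Psmc2 and Psmc6, were higher in cord than cerebellum (0.31 and 0.34) and lower in nerve than cord (-0.35 and -0.31), all called. After median centring the nerve differences were -0.17 and -0.13 and not called, and that of Psmc6 was also not called on the acrylamide arrays (-0.19) or by its other probe sets (-0.21 and -0.15), of which one gave 0.01 in cord minus cerebellum. Psmd14 was lower in the nerve than in either other tissue, by -0.85 ± 0.11 against the cord (adjusted p = 0.000163) and -0.75 ± 0.11 against the cerebellum (adjusted p = 0.0002), while cord and cerebellum differed by 0.10 ± 0.11, which was not called. Of its other probe sets one was also called lower in the nerve (-0.52 against the cord and -0.61 against the cerebellum) and one was called in neither (-0.23 and 0.10). The ubiquitin receptor Psmd4 and the cap subunit Psmd3 were lower in the nerve than in the cord, at -0.59 ± 0.08 and -0.58 ± 0.08. Of these, Psmd4 was also higher in the cord than in the cerebellum (0.52 ± 0.08), and Psmd3 was lower in the nerve than in the cerebellum (-0.40 ± 0.08, not called after median centring, at -0.20), as was Psmd8 (-0.42 ± 0.10, -0.22 after median centring and not called).

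2 cap genes went another way. The ATPase Psmc3 was higher in the nerve, with saline signals of 3149 and 3880 against 2528 and 2893 in the cord and 2069 and 2205 in the cerebellum. Its differences were 0.71 ± 0.11 in nerve minus cerebellum (adjusted p = 0.0003) and 0.37 ± 0.11 in nerve minus cord (adjusted p = 0.0156). The second of these was not called without nerve saline array 2 (0.22) or cord saline array 1 (0.27). Psmd12, a scaffold subunit of the cap's lid, had saline signals of 1804 and 1840 in the nerve, 1891 and 1782 in the cord and 1142 and 1081 in the cerebellum. It was lower in the cerebellum than in both other tissues, at 0.71 ± 0.12 in nerve minus cerebellum and 0.72 ± 0.12 in cord minus cerebellum, with -0.01 ± 0.12 in nerve minus cord.

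3 core genes, Psma1, Psma3 and Psmb5, were called lower in cord than cerebellum, and these calls were fragile. In cord minus cerebellum they differed by -0.32 ± 0.11, -0.26 ± 0.09 and -0.27 ± 0.10 (adjusted p = 0.0318, 0.0357 and 0.0478). Psma1 was no longer called without cerebellum saline array 1 (-0.20) or cord saline array 2 (-0.23), Psma3 without any 1 of the 4 saline arrays of these tissues (-0.31 to -0.21), and Psmb5 without 7 of the 12 arrays in turn (-0.38 to -0.17 over all 12). None of the 3 was called with limma's moderation without a trend (adjusted p = 0.055, 0.0596 and 0.0888) or on the acrylamide arrays (-0.20, -0.12 and -0.04), and only Psma1 was after median centring. With the mean over all its probe sets, of which the others are dim, the Psmb5 difference turned to 0.18 and was not called. A probe set shared by Psma3 and Psma3l went the other way, at 0.72 in cord minus cerebellum. In nerve minus cerebellum Psma3 differed by -0.44 ± 0.09 and Psma1 by -0.36 ± 0.11, the last not called without cerebellum saline array 1 (-0.24) or nerve saline array 2 (-0.29), and neither was called after median centring, and Psmb5 by -0.25 ± 0.10, which was not called (adjusted p = 0.0532). Among the chaperones, Psmg3 was lower in nerve than cord (-0.64 ± 0.13, adjusted p = 0.00252), and the cap chaperone Psmd5 was lower in nerve than cerebellum (-0.31, but -0.11 and not called after median centring). Psmd9 was higher in nerve than cerebellum by its brighter probe set (0.48 ± 0.11) and lower by the other (-1.14), both called.

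Several members varied little over all arrays. Over the 12 arrays the coefficient of variation of the signal was 5.04% for Psmb4, a beta-ring subunit, 5.53% for Psmd7, 5.75% for the alpha subunit Psma5 and 6% for the ATPase Psmc4, and its median over the 44 members was 12.5%. Psmb4 had 5855 and 5778 with acrylamide and 5836 and 6199 with saline in the nerve, 6022 and 6039 with acrylamide and 5965 and 6145 with saline in the cord, and 5468 and 5349 with acrylamide and 5333 and 5813 with saline in the cerebellum. At the other end were Psmf1 (63.3%, a 5.56-fold range over the 12 arrays), Psme1 (51.1%, 4.47-fold), Psmc5 (48%, 3.55-fold) and Psme2 (34.4%, 2.88-fold).

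Psmf1 and Psme1, whose products bind the core, had the widest range over the arrays. Psmf1 (gene at chr3:160695744-160720915) had 3782 and 3595 with acrylamide and 3188 and 4227 with saline in the nerve. In the cord it had 1571 and 1489 with acrylamide and 1582 and 1803 with saline, and in the cerebellum 833 and 870 with acrylamide and 761 and 798 with saline. No arrays of different tissues overlapped. In saline rats Psmf1 was 4.64-fold higher in nerve than cerebellum (log2 2.21 ± 0.13, adjusted p = 8.28e-07), 2.16-fold higher in nerve than cord (1.11 ± 0.13, adjusted p = 8.78e-05) and 2.14-fold higher in cord than cerebellum (1.1 ± 0.13, adjusted p = 0.000123). Without both nerve arrays numbered 1 the nerve differences were 2.42 against the cerebellum and 1.32 against the cord.

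Psme1 (chr15:33038962-33041849) had 2657 and 3097 with acrylamide and 3000 and 2636 with saline in the nerve, and 1603 and 1618 with acrylamide and 1582 and 1512 with saline in the cord, and the cerebellar values above lay below both. In saline rats it was 3.77-fold higher in nerve than cerebellum (log2 1.91 ± 0.10, adjusted p = 6.09e-07), and higher by 0.86 ± 0.10 in nerve minus cord and 1.06 ± 0.10 in cord minus cerebellum, and without both nerve arrays numbered 1 the nerve differences were 1.82 and 0.76. Psme2 (chr15:33048452-33053055) had 1564 and 1936 with acrylamide and 1664 and 1749 with saline in the nerve. In the cord it had 1101 and 1084 with acrylamide and 1050 and 1206 with saline, and in the cerebellum 942.5 and 736.5 with acrylamide and 672.5 and 847.5 with saline. The order was that of Psme1, at 1.16 ± 0.16 in nerve minus cerebellum, 0.59 ± 0.16 in nerve minus cord and 0.57 ± 0.16 in cord minus cerebellum, all called. The nerve minus cord call was lost without cord saline array 1 (0.49), and the cord minus cerebellum call without cerebellum saline array 1 (0.40) or cord saline array 2 (0.47). The other activator among the members, Psme4 (PA200), gave 0.36 ± 0.20 in nerve minus cerebellum and was not called in any of the 3 comparisons, while its other probe sets gave 0.52, which was called, and -0.12 there. Outside the rule, probe sets shared by Psme3, Aoc3 and G6pc1 were called lower in nerve than cord (-1.42, -0.53 and -0.80). Against the cerebellum they gave -0.91 and -0.555, both called, and -0.61, not called. A dim one was not tested.

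**Figure D4:**
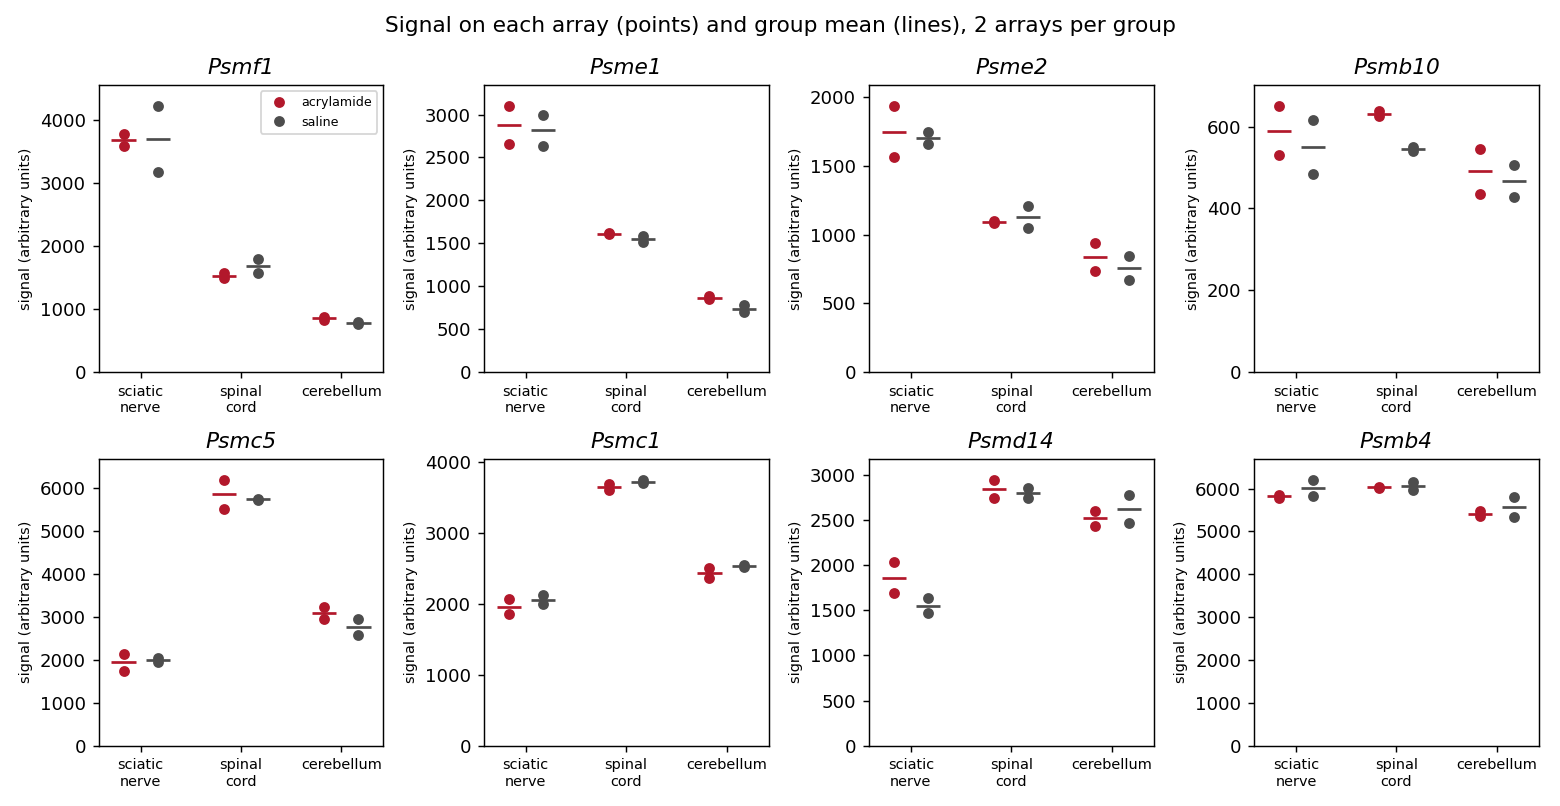
Signals in arbitrary units of 8 genes, with 1 point per array, red for acrylamide and grey for saline, and a line at the mean of the 2 arrays of a group. Psmf1, Psme1 and Psme2 descend from nerve over cord to cerebellum, Psmc5 and Psmc1 peak in the cord, and Psmd14 is low in the nerve. Psmb4 stays within a narrow range, and Psmb10 was not called between tissues.

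The immunoproteasome subunit Psmb10 was not called between any of the tissues. In saline rats its signals were 617 and 485 in the nerve, 551 and 540 in the cord and 506 and 429 in the cerebellum, and its differences were 0.23 ± 0.16 in nerve minus cerebellum (95% interval -0.14 to 0.59), 0.01 ± 0.16 in nerve minus cord and 0.22 ± 0.16 in cord minus cerebellum, none of them called. The 2 other inducible beta subunits, Psmb8 and Psmb9, which lie outside the rule, were each higher in nerve than cerebellum (2.72 ± 0.22 and 1.92 ± 0.20), in nerve than cord (1.038 and 1.001) and in cord than cerebellum (1.68 and 0.92), all called. With acrylamide Psmb8 had 220.4 and 191 in the cerebellum, against 125 and 141 with saline (0.57 ± 0.22, adjusted p = 1). Microglia and macrophage marker sums in saline rats were 6084 and 1725 in the nerve, 4565 and 4667 in the cord and 1727 and 1887 in the cerebellum. The signals of Psme1 and Psme2 on these arrays are given above, and the part of these cells in their tissue differences was not tested.

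The start regions of these regulators were set side by side because Psme1, Psme2 and Psmf1 were called in the same direction in all 3 tissue comparisons and Psmb10 in none. Psme1 and Psme2 lie close together on chromosome 15, with Emc9 between them. The regions run from 250 bases before to 50 bases after the annotated start, from RefSeq on GRCr8, printed 5′ to 3′ on the gene's strand. The region of Psme2 lies wholly inside the gene span given above, so the start used for it is not the outer end of that span. Capitals mark matches to the interferon-stimulated response element, searched as GAAA, any 2 bases and GAAA again, or to CCAAT, on either strand.
Psmf1, chr3:160720866-160721165 (minus strand): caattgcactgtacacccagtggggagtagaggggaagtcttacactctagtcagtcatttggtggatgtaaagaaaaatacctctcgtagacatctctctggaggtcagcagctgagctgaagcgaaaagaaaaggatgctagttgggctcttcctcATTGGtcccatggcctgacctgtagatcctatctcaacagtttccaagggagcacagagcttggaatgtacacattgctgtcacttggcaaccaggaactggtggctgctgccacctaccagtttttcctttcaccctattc
Psme1, chr15:33038721-33039020 (plus strand): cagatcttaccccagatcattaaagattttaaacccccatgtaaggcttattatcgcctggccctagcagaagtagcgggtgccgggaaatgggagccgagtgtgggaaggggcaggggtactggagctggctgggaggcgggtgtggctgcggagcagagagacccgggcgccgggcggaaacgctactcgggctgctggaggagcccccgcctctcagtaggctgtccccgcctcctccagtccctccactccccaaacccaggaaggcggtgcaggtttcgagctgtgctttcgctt
Psme2, chr15:33052702-33053001 (minus strand): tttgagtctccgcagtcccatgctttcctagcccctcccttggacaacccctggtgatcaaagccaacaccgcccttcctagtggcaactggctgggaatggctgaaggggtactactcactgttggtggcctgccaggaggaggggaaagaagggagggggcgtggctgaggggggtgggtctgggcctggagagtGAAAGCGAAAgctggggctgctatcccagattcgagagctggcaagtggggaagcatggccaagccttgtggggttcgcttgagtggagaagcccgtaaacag
Psmb10, chr19:50743243-50743542 (minus strand): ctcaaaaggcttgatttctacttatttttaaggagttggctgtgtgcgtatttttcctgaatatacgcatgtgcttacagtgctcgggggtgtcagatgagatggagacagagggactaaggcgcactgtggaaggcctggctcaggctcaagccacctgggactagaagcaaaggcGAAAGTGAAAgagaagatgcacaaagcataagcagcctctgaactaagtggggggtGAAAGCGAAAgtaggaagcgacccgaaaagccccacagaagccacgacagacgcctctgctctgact
The response element occurred at positions -73 and -17 of Psmb10 and at -53 of Psme2, counted from the start. It had no complete match in the windows of Psme1 and Psmf1. The Psme1 window, however, ends inside a partial match to the element on the opposite strand. A site that runs past the window edge could not be scored, so whether Psme1 has a complete element there was not tested. CCAAT, read as ATTGG, occurred in Psmf1 at -92. Of the 44 members 40 had a start region, and Psma7, Psmd6, Psmd12 and Psmd14 did not. The response element was found in 6 of the 40 (15%), which are Psma4, Psmb3, Psmb10, Psmd7, Psme2 and Psmg4, and in 3.92% of 33469 start regions. TGACNNNGC (GCNNNGTCA), the core of the antioxidant response element, was found in 7 of 40 (17.5%, against 12.1%), and CCAAT in 20 of 40 (50%, against 37.5%). Matches to different patterns may overlap, and a match describes the sequence only.

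Genes that work with the proteasome were read from a second list, of 29 genes on the arrays that include ubiquitin shuttles, deubiquitinases, assembly factors and the transcription factors Nfe2l1 and Nfe2l2. With acrylamide 0 of 29 passed in any tissue or in the average, with medians of 0.02, 0.03, -0.01 and 0.02 in the cerebellum, cord, nerve and average. The shuttle factor Ubqln4 had the smallest p in the cerebellum, at 0.29 ± 0.10 (adjusted p = 1), and also in the cord with the opposite sign, at -0.28 ± 0.10 (adjusted p = 1). The smallest p-values in the nerve were those of the ubiquitin ligase Ube3c (-0.19 ± 0.10) and the shuttle protease Ddi2 (0.23 ± 0.15). Between saline tissues 12 genes were called higher and 7 lower in cord than cerebellum, 2 higher and 10 lower in nerve than cord, and 7 higher and 11 lower in nerve than cerebellum. The share of all probe sets called was 53.1%, 57.9% and 69.7% in these comparisons, so the count out of 29 was above that share in the first and below it in the other two. The deubiquitinases that bind the cap were highest in the cord. Usp14 was higher in cord than cerebellum (0.64 ± 0.07) and lower in nerve than cord (-0.74 ± 0.07), and Uchl5 likewise (0.61 ± 0.12 and -0.96 ± 0.12). Nfe2l2, the transcription factor of the antioxidant response, was higher in nerve than cord (0.92 ± 0.11) and cerebellum (1.57 ± 0.11), as was Ngly1, an enzyme that removes glycans from proteins and from Nfe2l1 (1.22 ± 0.13 and 1.66 ± 0.13). The ubiquitin-activating enzyme Uba1 and the proteasome-binding Zfand5 were lower in nerve than cerebellum (-0.75 ± 0.07 and -0.80 ± 0.07).

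Another list held the genes of the immunoproteasome and of peptide loading for MHC class I, with 9 on the arrays and 7 or 8 passing the filter in a comparison. None of them passed the test for acrylamide in limma in any tissue or in the average. The smallest p-values were those of Psmb8 in the cerebellum, given above, of the transcription factor Irf1 in the cerebellum (0.57 ± 0.28) and in the average (0.34 ± 0.16), and of the peptide transporter Tap1 in the cord (-0.34 ± 0.20). In saline rats 5 of 8 were called higher in cord than cerebellum, 7 of 8 in nerve than cord and 8 of 8 in nerve than cerebellum, with medians of 0.80, 1.04 and 1.77, against 26%, 29.1% and 30.6% of all probe sets called higher. The peptidase Erap1 (2.56 ± 0.14), Tap1 (2.48 ± 0.20) and the MHC light chain B2m (1.19 ± 0.11) were each higher in nerve than cerebellum. The order from nerve over cord to cerebellum of Psme1 and Psme2 was also that of this list's median and of Psmf1. Psmb10, which is not on this list, was not called between any of the tissues.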

How the data were processed

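Rat Affymetrix arrays of a single colour were read out as intensity, 1 signal per probe set, deposited by the authors. GCOS 1.1 is the software per the submitters' processing notes. Which algorithm or scaling it applied is not given in the sources used here. With 2% trimmed from both ends, array means were 500.1 to 500.2, so the signals appear scaled.

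Groups came from the labels. Of 31099 probe sets, 57 controls were left out. Log2(signal + 16) was fitted in 1 limma 3.58.1 model (R 4.3.3, lmFit, eBayes with trend) with 6 group means and 6 residual and 3.14 prior degrees of freedom. A probe set was tested where a tissue's mean lay over the 40th percentile of all tissue means, at 110, and 21347 entered the model. P-values were two-sided, adjusted by Benjamini-Hochberg over all probe sets of a contrast, with a threshold of 0.05, and measure only the spread between pools. Precision is limited by having 2 arrays per group. The fit was tested on simulated data with log2 changes of 1 and 2. Acrylamide differences of the members were at most 0.28, so that test does not cover changes of their size.

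Members and lists were chosen with earlier results of these data known. Named were the members with the smallest p for acrylamide (6 per contrast, 4 for the F test), the largest called tissue differences (6 per direction), the brightest and dimmest of each role (with no comparison of their levels), Psmb5, Psmb7, Psmb10, Psme1 and Psme2 always, and up to 4 genes per other list. The most stable and most variable members were chosen after their values were seen. Symbols came from the platform annotation, and all 44 members matched RefSeq (GRCr8) by gene ID. Alternatives were scaling, pseudocount, filter, moderation, probe-set choice, replicate blocks, fits per tissue, arrays used and each array left out.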

Additional observations from a re-analysis of the deposited data

How the results depend on the processing

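No proteasome gene was called for acrylamide, in any tissue, in the average or in the F test, under any alternative. The count of all probe sets called for acrylamide was small and moved with the setting: in the cerebellum 2 with each tissue fitted alone or without both nerve arrays numbered 1; in the nerve 2 (quantile normalization, pseudocount 64, no filter, robust moderation or 1 probe set per gene), 0 (replicate block within tissues, tissue fitted alone, without the muscle-rich arrays) or 381 (without both nerve arrays numbered 1); in the average 4 (quantile normalization), 1 (median centring, no trend, 1 probe set per gene), 6 (either replicate block), 0 (without the muscle-rich arrays) or 274 (without both nerve arrays numbered 1), and in the F test 98 (without both nerve arrays numbered 1). With each array left out in turn these counts ranged over 0 to 2 (cerebellum), 0 to 1 (cord), 0 to 35 (nerve), 0 to 32 (average) and 0 to 1 (F test). The cause of these shifts was not tested. The fits without the muscle-rich arrays, without both nerve arrays numbered 1 and with acrylamide arrays in tissue contrasts were chosen after seeing the data.

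Among tissue contrasts, all probe sets called were 5385, 6236 and 7138 (cord minus cerebellum, nerve minus cord, nerve minus cerebellum) with 1 probe set per gene, where fewer were tested, and 1269, 2386 and 4949 with a 2-fold minimum, where 0, 1 (Psmc5) and 2 (Psmf1, Psme1) members were called. The difference of array 1 minus array 2 was compared, over the probe sets tested, between acrylamide and saline. The correlation of these differences was 0.092, -0.086 and 0.329 in the cerebellum, cord and nerve. In the nerve both arrays numbered 1 carry cerebellar neuron RNA. With 2 pairs per tissue and no label on what a number marks, pairing is not known, within or across tissues. Under the replicate block within tissues 14 members were called in cord minus cerebellum (median 0.196) and the median of nerve minus cord was -0.106. Members called ranged over 13 to 26, 14 to 20 and 16 to 21 with 1 array left out. The members' median for acrylamide in the nerve was -0.06 with median centring, -0.053 without both nerve arrays numbered 1 and -0.059 to 0.032 with 1 array left out. For cord minus cerebellum it was 0.191 with acrylamide arrays. For nerve minus cord it was -0.136 (quantile), 0.108 (median centring), -0.039 (without muscle-rich arrays), -0.101 (acrylamide arrays) and -0.119 to -0.039 (1 array left out). For nerve minus cerebellum it was -0.009 (quantile), 0.218 (median centring), 0.073 (without both nerve arrays numbered 1) and 0.02 to 0.073 (1 array left out).

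Signs reversed for few genes, mostly of differences near zero, but 2 reversals were of differences called in the main fit. These were Psmb5 in cord minus cerebellum and Psmd9 in nerve minus cerebellum, both with the mean over all probe sets. The reversed Psmd9 difference was itself called (adjusted p = 0.0477 in limma). With the mean over all probe sets of a gene, Psmd9 gave -0.034, -0.03 and -0.071 for acrylamide in cerebellum, cord and average, and -0.332 in nerve minus cerebellum; Psmb5, whose other probe sets are dim, gave 0.669, 0.195 and 0.298 for acrylamide in cerebellum, nerve and average, and 0.183 and 0.248 in cord and nerve minus cerebellum. For acrylamide in the nerve Psmb10 gave -0.045 without the muscle-rich arrays, Psme1 -0.025 (median centring) and -0.082 (without those arrays), and Psme2 -0.024 and -0.124. In the average Psmb7 gave -0.006 (median centring) and -0.053 (without both nerve arrays numbered 1), and Psme2 -0.042 (without muscle-rich arrays). In nerve minus cord Psmb5 gave -0.06 (quantile), -0.056 (replicate block), -0.02 (all arrays) and -0.064 (acrylamide arrays), and Psmb10 -0.049 (all arrays), -0.164 (without both nerve arrays numbered 1) and -0.103 (acrylamide arrays).

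With 1 array left out, acrylamide values of both signs arose in the cerebellum for Psmb7 (-0.007 to 0.16), Psmb10 (-0.093 to 0.222) and Psme2 (-0.035 to 0.314). In the cord they arose for Psmd9 (-0.01 to 0.238), Psmb5 (-0.055 to 0.147), Psmb7 (-0.013 to 0.079) and Psme2 (-0.141 to 0.057). In the nerve they arose for Psmb5 (-0.145 to 0.06), Psmb7 (-0.244 to 0.04), Psmb10 (-0.071 to 0.268), Psme1 (-0.082 to 0.138) and Psme2 (-0.124 to 0.181). In the average they arose for Psmb7 (-0.045 to 0.05) and Psme2 (-0.016 to 0.1), and in nerve minus cord for Psmb5 (-0.078 to 0.127) and Psmb10 (-0.164 to 0.174).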
